A study of Mus musculus with 10 samples.

Results

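Heat shock chaperones and co-chaperones were followed in RNA sequencing of mouse heart ventricle, as 10 genes chosen by symbol from the 23360 genes of the mRNA table (13 transcript rows in all). They are the HSP70 genes Hspa8, Hspa1a, Hspa1b and Hspa5, the HSP90 genes Hsp90aa1 and Hsp90ab1, the HSP110 gene Hsph1, the small heat shock protein gene Hspb1, and the J-protein genes Dnaja1 and Dnajb1. The ventricles came from C57BL/6 mice at 2 weeks of age that were wild type (WT, 2 libraries) or Trbp-cKO (2 libraries), a conditional knockout of Trbp, the protein of gene Tarbp2, which binds double-stranded RNA and works with Dicer. The labels name neither the driver of the deletion nor whether replicates were separate animals, so spreads and p-values describe these libraries and may be technical. Because the genes were picked with results of this genotype comparison known, their own differences are a description, and a count of them past a threshold, given once beside that of all genes, supports nothing.

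HSP70 proteins bind exposed stretches of unfolded clients in a cycle driven by ATP. J proteins such as Dnaja1 and Dnajb1 deliver clients and start hydrolysis, and Hsph1 is a nucleotide exchange factor that resets the cycle. HSP90 proteins take over clients such as kinases and receptors, and small heat shock proteins hold unfolded clients without ATP. In the cytosol the constitutive HSP70 is Hspa8, while Hspa1a and Hspa1b are the forms induced by heat through heat shock factor 1 (Hsf1), and Hspa5 (BiP) is the HSP70 of the endoplasmic reticulum (ER). In muscle, chaperones also fold and maintain myosin and other sarcomere proteins.

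Levels are counts scaled to library size (CPM), with library sizes adjusted by trimmed mean of M-values (TMM), and a log2 fold change is Trbp-cKO over WT with its standard error (SE). Libraries held 10151184 to 13540495 counts over genes, and 13625 genes passed a filter on low counts, among them all 10 chaperones. Tarbp2, the targeted gene, held 12.7 and 11.5 CPM in the WT libraries, against 3.87 and 3.89 CPM in Trbp-cKO. Markers of some cell types shifted with genotype in the edgeR quasi-likelihood test. In this test 5.17% of all tested genes were higher and 4.2% lower at an adjusted p under 0.05. The 8 cardiomyocyte markers summed to 86800 and 85800 CPM in WT, against 96100 and 102000 CPM in Trbp-cKO, with 4 higher (Myh6, Tnnt2, Ryr2 and Ttn) and 1 lower (Mybpc3). Of 8 fibroblast markers 3 were lower (Col1a1, Col1a2 and Col3a1) and 1 was higher (Gsn), and their sums overlapped. Of 8 endothelial markers 1 was higher (Tek, log2 fold change 0.29), a call lost in DESeq2 (adjusted p = 0.0975). None of 8 smooth muscle and pericyte markers or 8 macrophage and leukocyte markers passed. The median log2 fold changes of these lists were 0.06, 0.08 and 0.05. Of 6 tested erythroid markers 4 were lower (Alas2, Hba-a1, Hba-a2 and Hbb-bt), with Hba-a1 and Hba-a2 holding the same counts in every library. The erythroid median log2 fold change was -0.47, and -0.28 with summed transcript rows, under which 1 of the 6 was lower. Cardiomyocyte calls were lost on leaving out either WT library, and calls over all tested genes also became fewer. The cardiomyocyte median was 0.16 with all libraries, 0.18 without WT replicate 1 and 0.14 without WT replicate 2. Fibroblast calls were lost without WT replicate 1 (median -0.05, beside -0.09 with all libraries). Erythroid calls were lost without WT replicate 2 (median -0.32) or Trbp-cKO replicate 1 (-0.35). The part of these shifts in the chaperone values was not tested. In ventricle RNA, fewer cells of a type and less RNA per cell cannot be told apart.

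Both Trbp-cKO libraries stood apart on a list of genes, replicate 2 on the ER chaperones described further on and replicate 1 on genes that respond to stimuli. A list of 15 immediate early genes, which are transcribed within minutes of a stimulus, was at its highest in that library for 15 of 15 genes, while 25.5% of all tested genes were highest there. The summed level of the list was 1340 and 823 CPM in WT, 4000 CPM in Trbp-cKO replicate 1 and 1460 CPM in Trbp-cKO replicate 2. WT replicate 2 was the lowest library for 13 of the 15 genes (86.7%, beside 25.2% of all tested genes). It was also the highest for 6 of 6 tested erythroid markers (100%, beside 25.8% of all tested genes). Fos, chosen after its values were seen, was at 28.7 and 4.36 CPM in WT and at 395 and 30.0 CPM in Trbp-cKO. In the edgeR quasi-likelihood test over all genes, 2 of the 15 rose, beside 5.17% of all tested genes. These were Ier3 (log2 fold change 1.20 ± 0.11, adjusted p = 0.000258) and Klf4 (0.51 ± 0.10, adjusted p = 0.0163). The Klf4 call was lost on leaving out WT replicate 1 (edgeR adjusted p = 0.0549) or WT replicate 2 (0.150). The median log2 fold change of the list was 1.25 with all libraries, 0.33 without Trbp-cKO replicate 1 and 1.89 without Trbp-cKO replicate 2. The median was 1.5 without WT replicate 1 and 1.18 without WT replicate 2. Values of the chaperones without Trbp-cKO replicate 1 are given beside those with it for Hspa1a, Hspa1b, Hspa5, Dnaja1, Dnajb1 and Hspb1.

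**Figure D1:**
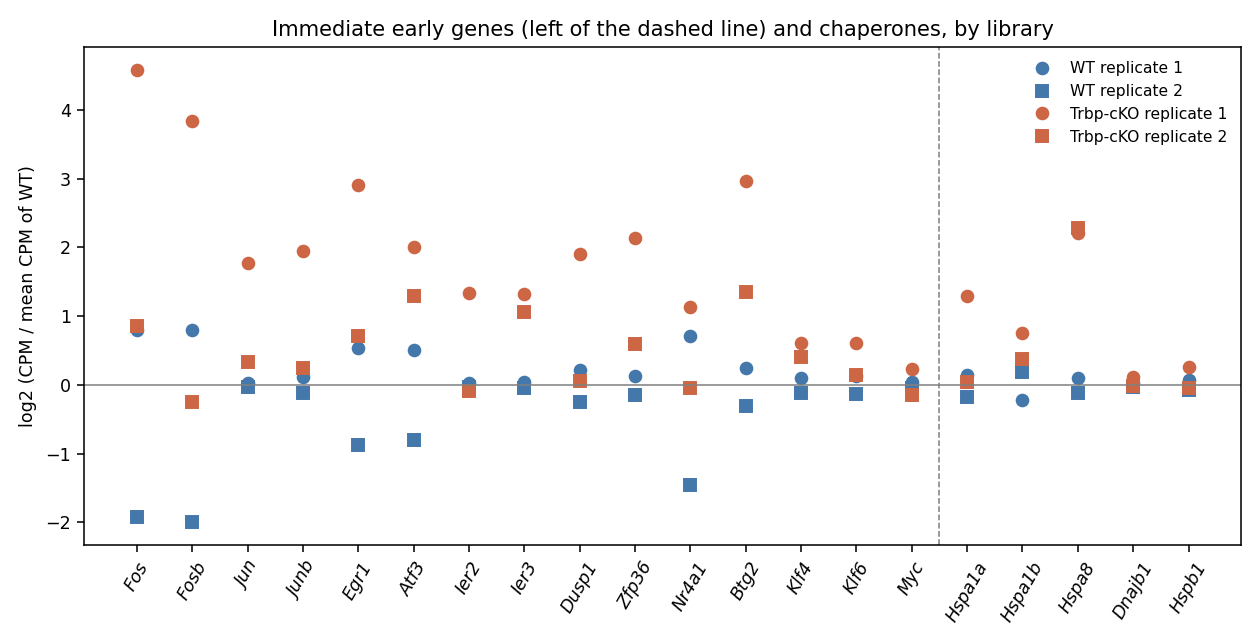
Level of each immediate early gene (left of the dashed line) and of 5 chaperones (right) in each library, as the log2 ratio of its CPM to the mean CPM of WT. Circles are replicate 1 and squares replicate 2, blue for WT and orange for Trbp-cKO. All 15 immediate early genes were highest in Trbp-cKO replicate 1, and so were Hspa1a, Hspa1b, Dnajb1 and Hspb1. These are 4 of the 10 chaperones (40%, beside 25.5% of all tested genes). Both Trbp-cKO libraries lay together for Hspa8.

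Hspa8 was the chaperone with the largest difference of the 10. Its transcript NM_031165 held 645 and 428 counts in WT and 2688 and 2938 counts in Trbp-cKO. These were 48.6 and 41.5 CPM in WT and 208 and 220 CPM in Trbp-cKO, so that both Trbp-cKO libraries lay far above both WT libraries. The mean went from 45.1 ± 5.06 to 214 ± 8.08 CPM (SD, n = 2 each), 4.74-fold higher, with a log2 fold change of 2.24 ± 0.09. It was the gene at rank 25 of 13625 by log2 fold change, and leaving out any 1 library gave values between 2.13 and 2.37. The authors' deposited table gives a ratio of 4.72 for the same row.

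Hspa8 lies on chromosome 9 (40801276 to 40805202, GRCm38), and its span holds the small nucleolar RNA genes Snord14c, Snord14d and Snord14e. The rows of Snord14c and Snord14d had no count in any library. Hspa8 has many near-identical processed copies elsewhere in the genome, and how reads with several matches were counted is not given in the sources used here. No other row was named as a copy of Hspa8, so its counts could not be set beside those of copies. As a description of other genes that have many processed copies, 20 such genes were read in the same libraries. Of these 20, 1 rose and 1 fell, beside 5.17% and 4.2% of all tested genes. The gene that rose was the ribosomal protein gene Rplp0 (237 ± 6.22 to 332 ± 16.9 CPM, SD, n = 2, log2 fold change 0.48 ± 0.07, edgeR adjusted p = 0.00366). Another, the tubulin gene Tuba1b, fell (31.8 ± 0.992 to 22.5 ± 1.64 CPM, by 0.50 ± 0.09 on the log2 scale, edgeR adjusted p = 0.0113). Some of the 20 that every cell uses were listed very low, Gapdh at 2.04 to 3.29 CPM, Ppia at 0.754 to 1.07 CPM and Rpsa at 2.64 to 3.20 CPM, while others such as Eef1a1 reached 498 to 638 CPM. What share of Hspa8 reads its CPM holds was not tested. The median of the 20 was -0.06 and their highest log2 fold change 0.60. Both calls were lost without WT replicate 1 (edgeR adjusted p = 0.0937 for each gene) and without WT replicate 2 (0.0752 for Rplp0 and 0.141 for Tuba1b). The Tuba1b call was also lost in DESeq2 (adjusted p = 0.0725) and without Trbp-cKO replicate 2 (edgeR adjusted p = 0.0525).

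The genes whose levels over the 4 libraries were most like those of Hspa8 were sought by the Euclidean distance between log2 CPM deviations. The search covered 10584 other genes with a mean of at least 5 CPM. Genes with predicted names (Gm and digits, or ending in Rik) were left out. A copy of Hspa8 under such a name could therefore not appear among the nearest genes. Phactr1, an actin and phosphatase regulator, was nearest at a distance of 0.340, with 12.1 and 11.3 CPM in WT and 43.0 and 46.7 CPM in Trbp-cKO. Ankrd63 (0.479), Scgb1c1 (0.613), Asb4 (0.635) and Thsd4 (0.647) came next, at 3.09-fold to 4.02-fold higher in Trbp-cKO. No chaperone was among these 5. With a mean of at least 20 CPM, 3 of the 5 remained, and Sox6 (0.717) and Dnajc27 (0.815) took the other places, the latter a small GTPase gene with a J domain. The likeness is over 4 libraries of 2 genotypes, and the same counts chose Hspa8, so it is a description.

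**Figure D2:**
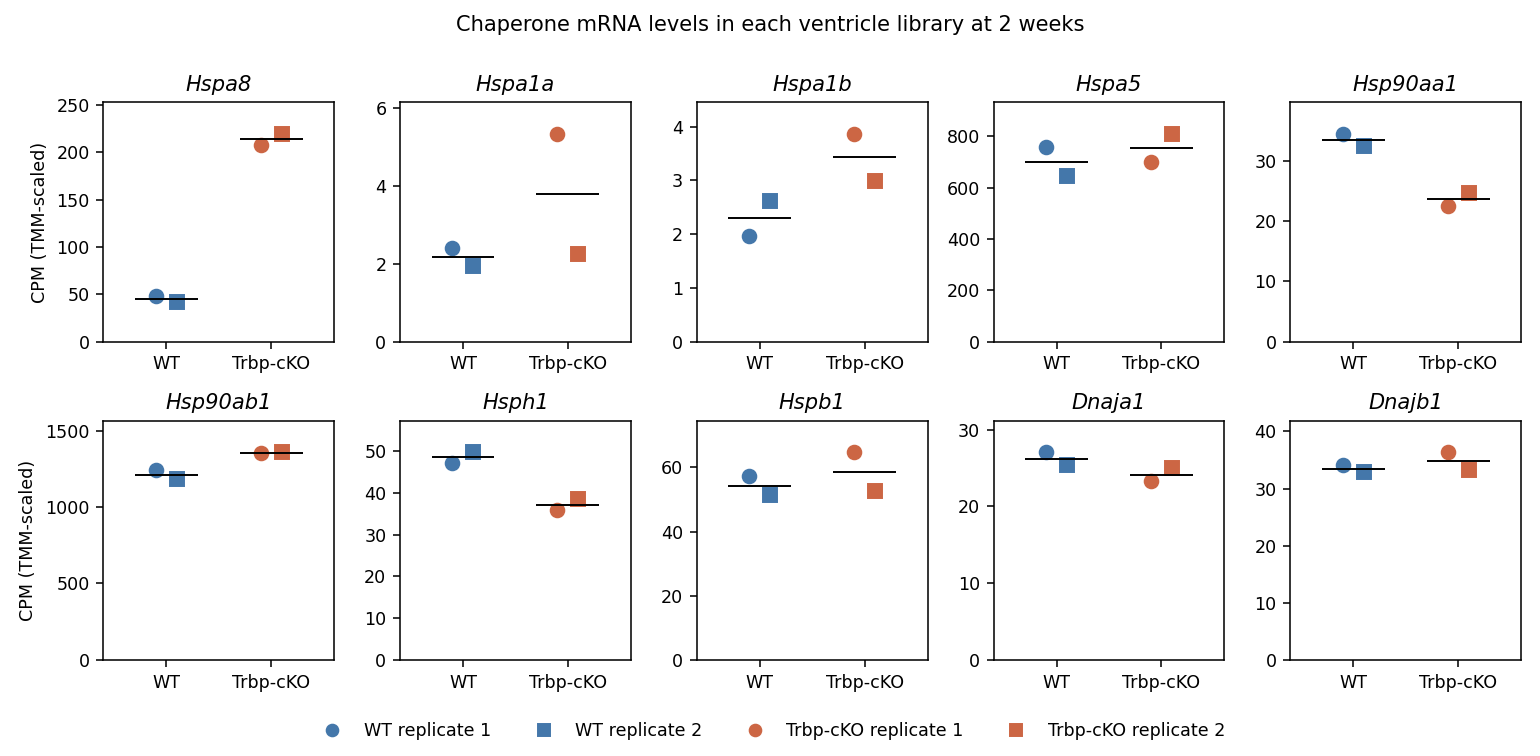
Level of each of the 10 chaperones in each library, in CPM on a linear axis from 0 that differs between panels. Points are libraries (circle replicate 1, square replicate 2) and lines are means of 2. Hspa8 separates the genotypes by 4.74-fold, while Hspa5, Hspb1, Dnajb1 and Hspa1a overlap.

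The heat-inducible genes Hspa1a and Hspa1b were low. Hspa1a (NM_010479, chromosome 17, 34969359 to 34972156) held 32 and 20 counts in WT and 69 and 30 counts in Trbp-cKO. The levels were 2.41 and 1.94 CPM in WT and 5.34 and 2.24 CPM in Trbp-cKO, so that 1 Trbp-cKO library was high and the other lay among the WT libraries. The exact 95% Poisson interval of the high library, 4.16 to 6.76 CPM, did not meet that of Trbp-cKO replicate 2, 1.51 to 3.20 CPM (such intervals cover counting error only). The log2 fold change of Hspa1a was 0.78 ± 0.44 with all libraries, 0.03 without Trbp-cKO replicate 1 and 1.28 without Trbp-cKO replicate 2.

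Hspa1b (NM_010478, chromosome 17, 34956429 to 34959238) held 26 and 27 counts in WT and 50 and 40 counts in Trbp-cKO. Its levels were 1.96 and 2.62 CPM in WT and 3.87 and 2.99 CPM in Trbp-cKO. The groups did not overlap, as in 54.6% of all tested genes. The exact 95% Poisson interval of WT replicate 2, 1.72 to 3.81 CPM, met those of both Trbp-cKO libraries. These were 2.87 to 5.10 CPM in replicate 1 and 2.14 to 4.07 CPM in replicate 2. Its log2 fold change was 0.60 ± 0.28, and 0.40 without Trbp-cKO replicate 1. The paired genes encode nearly the same protein, so their reads may have been split between them, and their summed level was 4.37 and 4.56 CPM in WT and 9.22 and 5.23 CPM in Trbp-cKO. The sum was thus highest in the library in which the immediate early genes were highest, and the part of that library's state in the Hspa1a and Hspa1b values was not tested. In Hspa8 the same library was the lower of the Trbp-cKO pair.

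Promoter windows of RefSeq (GRCm38.p6, 250 bases before to 50 after the start) were matched for 7 of the 10 genes, all but Hspa8, Hsp90aa1 and Hsp90ab1. The windows of Hspa1a and Hspa1b are shown because these genes, which encode nearly the same protein, also have nearly the same promoter sequence. Of 300 bases 296 were identical, and the differences, counted from the window's 5′ end with the Hspa1a base first, were C44T, T47C, T249G and C276T. The 250 bases before the start are printed 5′ to 3′ on the minus strand, at chr17:34972157-34972406 for Hspa1a and chr17:34959239-34959488 for Hspa1b. Capitals mark a pair of facing heat shock element units, GAANNTTC, from base -104 to base -97.
Hspa1a: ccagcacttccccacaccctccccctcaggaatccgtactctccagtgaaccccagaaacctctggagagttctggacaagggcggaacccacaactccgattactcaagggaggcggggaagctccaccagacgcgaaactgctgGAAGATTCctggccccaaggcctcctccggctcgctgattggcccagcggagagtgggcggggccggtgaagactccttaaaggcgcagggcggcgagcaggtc
Hspa1b: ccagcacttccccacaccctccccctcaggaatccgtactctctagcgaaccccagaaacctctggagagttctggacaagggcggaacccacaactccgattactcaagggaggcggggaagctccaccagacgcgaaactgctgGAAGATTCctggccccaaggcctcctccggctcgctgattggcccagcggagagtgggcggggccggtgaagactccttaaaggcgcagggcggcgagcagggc

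Heat shock elements, the sites of heat shock factors, are built from repeats of the unit GAA in alternating directions. A run of 3 units (GAANNTTC followed after any 2 bases by GAA, or its reverse complement, so that both strands are covered) was found in 0.603% of 32851 windows, and among the 7 genes in Hsph1 alone. A run of 2 units (GAANNTTC or TTCNNGAA, either strand, which every run of 3 also holds) was found in 15.1% of all windows and in 5 of the 7 genes, namely Hspa1a, Hspa1b, Hsph1, Hspb1 and Dnaja1. By gene, 17.0% of 27025 genes held a run of 2 units in some window. Of 16 other genes known to be induced by heat, 8 held a run of 2 units (50%) and 3 a run of 3 (18.8%). The log2 fold changes of the genes with a run had both signs, such as 0.60 in Hspa1b and -0.38 in Hsph1. Only exact letters were matched, so a longer run in which a unit has a changed letter was not counted. Windows without such letters, as in Dnajb1, say nothing about binding elsewhere.

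Hspa5, the ER chaperone, was at 757 and 645 CPM in WT and at 701 and 810 CPM in Trbp-cKO. The genotypes overlapped, with a log2 fold change of 0.11 ± 0.10. The value was 0.21 without Trbp-cKO replicate 1 and 0.00 without Trbp-cKO replicate 2, and 0.23 and -0.01 on leaving out WT replicate 1 or 2. Its 2 transcript rows, NM_022310 and NM_001163434, carried nearly the same reads, the second holding 99.9% of the count of the first. The gene's span (chromosome 2, 34772090 to 34776529) overlaps that of Rabepk, a Rab9 effector gene at 6.50 to 11.4 CPM, and a read in the shared stretch could belong to either gene. The ER stress element, CCAAT and CCACG separated by any 9 bases on either strand, is the known site through which this gene responds to unfolded protein in the ER. It was sought after the sequence had been seen. One stood in the Hspa5 window at base -65 to -47, and 0.119% of all windows held one. It is in capitals in the 250 bases before the start (plus strand, chr2:34771840-34772089).
Hspa5: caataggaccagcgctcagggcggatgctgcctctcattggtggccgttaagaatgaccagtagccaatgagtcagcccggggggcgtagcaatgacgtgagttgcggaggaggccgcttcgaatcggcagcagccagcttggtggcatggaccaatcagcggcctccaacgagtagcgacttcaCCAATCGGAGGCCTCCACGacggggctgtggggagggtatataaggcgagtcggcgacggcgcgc

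Of 20 further ER chaperones and genes of the unfolded protein response, 2 rose and none fell in edgeR, against 5.17% and 4.2% of all tested genes. Unadjusted, 7 were higher and 0 lower at a p under 0.05 in edgeR, beside 1708 and 1551 of all 13625 genes tested. DESeq2 called 2 of the 20 higher and 0 lower, beside 450 and 318 of all genes. Herpud1, a factor of ER-associated degradation, was at 140 ± 3.98 CPM in WT and rose to 226 ± 22.3 CPM (SD, n = 2), which is 1.61-fold (adjusted p = 0.00106 in edgeR). Canx, the lectin chaperone calnexin, was at 336 ± 20.2 CPM in WT and rose to 418 ± 23.3 CPM, which is 1.24-fold (adjusted p = 0.0325 in edgeR). The Canx call was lost with total count scaling (edgeR adjusted p = 0.0561) and on leaving out WT replicate 1 (0.151), WT replicate 2 (0.313) or Trbp-cKO replicate 2 (0.0613). Over the 20 genes the median log2 fold change was 0.05, beside 0.00 over all genes tested. It was 0.21 when Trbp-cKO replicate 1 was left out, with 19 of 20 values positive, and -0.04 when Trbp-cKO replicate 2 was, with 8 of 20 positive. Trbp-cKO replicate 2 held the highest level of 17 of the 20 genes (85%, beside 24.9% of all tested genes), as it did for Hspa5, and Trbp-cKO replicate 1 the lowest of 10. The part of either library's state in these values was not tested.

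The paired cytosolic HSP90 genes differed in the sign of their log2 fold change. Hsp90aa1 (NM_010480, chromosome 12, 110691036 to 110696395), the inducible form, was at 34.5 and 32.4 CPM in WT and at 22.5 and 24.7 CPM in Trbp-cKO, with no overlap. Its mean was 33.4 ± 1.48 CPM in WT, and that of Trbp-cKO was 23.6 ± 1.51 CPM (SD, n = 2), 1.42-fold lower, at a log2 fold change of -0.50 ± 0.09. The authors' deposited table gives it a ratio of 0.703. Hsp90ab1 (NM_008302, chromosome 17, 45567778 to 45573261), the constitutive form, was at 1240 and 1180 CPM in WT and at 1350 and 1360 CPM in Trbp-cKO. It lay higher in both Trbp-cKO libraries by a small step, a log2 fold change of 0.16 ± 0.07.

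Hsph1 (NM_013559, chromosome 5, 149616843 to 149636498), the HSP110 exchange factor, was at 47.1 and 49.8 CPM in WT and at 35.8 and 38.5 CPM in Trbp-cKO. Both Trbp-cKO libraries lay below both WT libraries, and the log2 fold change was -0.38 ± 0.09. Its window is shown because it alone held a run of 3 heat shock units, TTCTGGAAAGTTC. With the start as base 1, the run began at base 37 in 1 of its 2 annotated windows and at base 16 in the other. It thus lies past the end of the printed stretch. The 250 bases before the first start (minus strand, chr5:149636337-149636586) hold another run of 2 units, in capitals, at base -33 to -26.
Hsph1: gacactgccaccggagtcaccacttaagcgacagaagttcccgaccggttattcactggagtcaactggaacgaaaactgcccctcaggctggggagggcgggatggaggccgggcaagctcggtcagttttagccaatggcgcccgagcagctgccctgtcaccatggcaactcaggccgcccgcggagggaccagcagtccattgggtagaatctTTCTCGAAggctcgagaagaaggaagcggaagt

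The J-protein genes and Hspb1 lay close to their WT levels. Dnaja1 was at 27.1 and 25.4 CPM in WT and at 23.3 and 25.0 CPM in Trbp-cKO, which lay lower without overlap by a log2 fold change of -0.12 ± 0.09, and of -0.07 without Trbp-cKO replicate 1. Its 3 transcript rows told the same, with 88.5% to 89.3% of the top row's count in the other 2 and a ratio of Trbp-cKO over WT of 0.912 to 0.920. The span of Dnaja1 (chromosome 4, 40722468 to 40734965) also holds Mir207 and the RNA gene Gm6297, and the Mir207 row held 0 to 4 counts. Dnajb1 (chromosome 8, 83608175 to 83612653), the J protein that works with the inducible HSP70s, was at 34.2 and 32.9 CPM in WT and at 36.4 and 33.3 CPM in Trbp-cKO, with a log2 fold change of 0.06 ± 0.09. Hspb1 (chromosome 5, 135887919 to 135889563) was at 57.2 and 51.4 CPM in WT and at 64.8 and 52.5 CPM in Trbp-cKO, with a log2 fold change of 0.11 ± 0.11. The genotypes overlapped in both Dnajb1 and Hspb1. In each of these genes the higher Trbp-cKO library was replicate 1, and without it the log2 fold changes were -0.01 and -0.05.

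**Figure D3:**
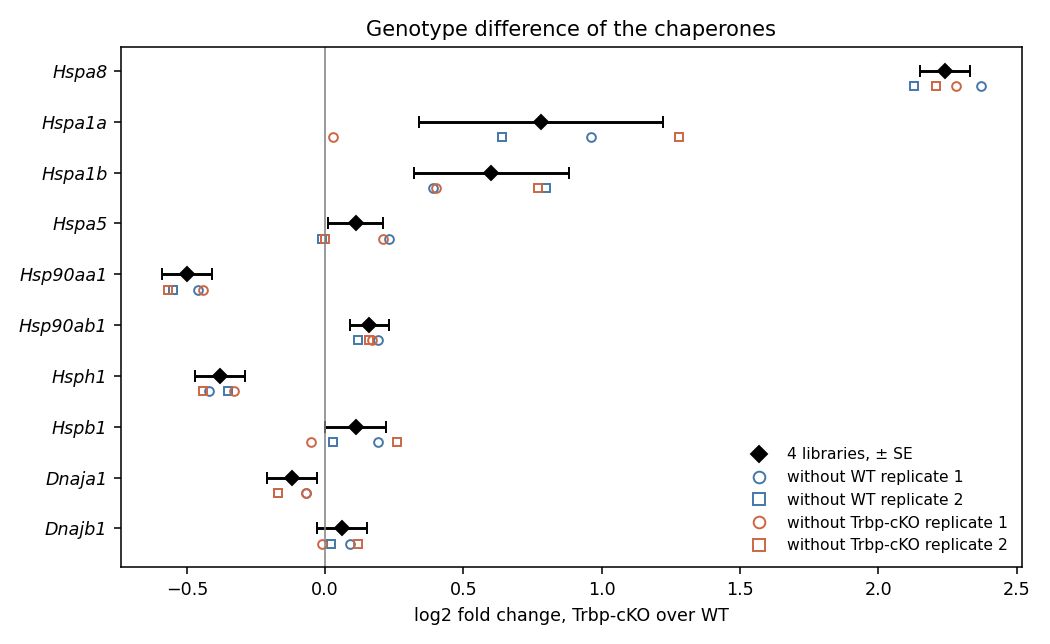
Log2 fold change of each chaperone, Trbp-cKO over WT. Diamonds with bars are values from 4 libraries with their SE, and open symbols are values with 1 library left out. Hspa8 stays between 2.13 and 2.37, while Hspa1a runs from 0.03 to 1.28.

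Set against the whole table, 1 of the 10 chaperones (Hspa8) was higher and 2 (Hsp90aa1 and Hsph1) were lower at an edgeR adjusted p under 0.05, where 5.17% and 4.2% of all tested genes were. These 3 of 10 stand beside 9.37% of all tested genes past the threshold in either direction. Since the choice of the genes used this contrast, nothing is read from these shares. The calls of Hsp90aa1 and Hsph1 were lost in DESeq2 and on leaving out either WT library, and that of Hsph1 also on leaving out Trbp-cKO replicate 1, while Hspa1a passed without Trbp-cKO replicate 2. Of the 10, 6 had groups that did not overlap (3 higher and 3 lower), beside 54.6% of all tested genes. The median log2 fold change of the 10 was 0.11.

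The other genes of the chaperone network were read from lists without the 10. Across 97 tested genes of 8 lists, 6 rose and 8 fell at an edgeR adjusted p under 0.05, beside 5.17% and 4.2% of all tested genes. The median log2 fold change of the 97 was -0.03. Leaving out WT replicate 1 or WT replicate 2 lowered the counts of the 97, as it lowered the counts over all tested genes. The highest value of the 97, 0.91 for Ier5, was below the 2.24 of Hspa8. The counts of each list below stand beside the same shares of all genes, 5.17% higher and 4.2% lower.

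Among 10 other HSP70 family genes, which include Hspa4, Hspa9 and the testis-enriched Hspa1l, none passed in edgeR or DESeq2. At an unadjusted edgeR p under 0.05, 1708 of all 13625 tested genes were higher and 1551 lower. Of these 10, 1 was higher and 2 were lower. Those with the smallest p were Hspa4l (51.5 ± 3.13 to 41.2 ± 4.05 CPM, edgeR adjusted p = 0.0670) and Hyou1 (61.9 ± 4.73 to 79.7 ± 10.6 CPM, edgeR adjusted p = 0.0679), an HSP110-like chaperone of the ER. Hspa1l, which starts within 2000 bases of Hspa1a, was at 6.04 to 10.3 CPM.

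Of 26 HSP70 co-chaperones, 1 rose and 2 fell. Dnaja4, a J protein, rose from 113 and 121 CPM in WT to 152 and 166 CPM in Trbp-cKO (log2 fold change 0.44 ± 0.07, edgeR adjusted p = 0.00569). Bag2, an exchange factor that inhibits the ligase Stub1, fell from 75.9 and 78.4 to 50.5 and 50.7 CPM (-0.61 ± 0.07, edgeR adjusted p = 0.00116). The Bag2 call held in each alternative that was run. Hspbp1, another exchange factor, fell by 0.36 on the log2 scale (edgeR adjusted p = 0.0330), a call lost in DESeq2 (adjusted p = 0.241), with summed transcript rows (edgeR adjusted p = 0.0533) and without any 1 library (0.0604 to 0.215). The Dnaja4 call was lost without WT replicate 1 (edgeR adjusted p = 0.121) or 2 (0.0719).

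Of 20 HSP90 family genes and co-chaperones, 1 rose and 4 fell. Unc45b, the muscle chaperone that folds myosin with HSP90, rose from 338 and 335 to 473 and 456 CPM (log2 fold change 0.46 ± 0.07, edgeR adjusted p = 0.00337). Smyd1, a muscle methyltransferase needed for sarcomere assembly, fell from 833 and 821 to 675 and 596 CPM (-0.38 ± 0.08, edgeR adjusted p = 0.0157). Itgb1bp2, the muscle co-chaperone melusin, fell from 224 and 218 to 163 and 165 CPM (-0.43 ± 0.06, edgeR adjusted p = 0.00391). Tomm70a, a mitochondrial import receptor that docks HSP90 and HSP70, fell by 0.32 (edgeR adjusted p = 0.0346), and Fkbp5, named outside the rule after its value was seen, fell by 0.45 on the log2 scale (edgeR adjusted p = 0.0471). All 5 calls were lost on leaving out either WT library. Without WT replicate 1 or 2 the log2 fold changes were 0.47 and 0.45 in Unc45b and -0.37 and -0.4 in Smyd1. They were -0.41 and -0.46 in Itgb1bp2, -0.28 and -0.38 in Tomm70a, and -0.48 and -0.43 in Fkbp5. The Tomm70a call was also lost in DESeq2 (adjusted p = 0.0655), with summed transcript rows (edgeR adjusted p = 0.0574) and on leaving out Trbp-cKO replicate 2 (0.0992). That of Fkbp5 was also lost in DESeq2 (adjusted p = 0.276), with summed transcript rows (edgeR adjusted p = 0.0605) and on leaving out either Trbp-cKO library (0.146 and 0.0583).

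Of 6 tested small heat shock protein genes other than Hspb1, 2 fell and none rose in edgeR or DESeq2. At an unadjusted edgeR p under 0.05, 1 was higher and 3 were lower, beside 1708 and 1551 of all 13625 tested genes. Hspb8, the partner of Bag3 in selective autophagy, fell from 437 and 393 to 298 and 301 CPM (log2 fold change -0.47 ± 0.08, edgeR adjusted p = 0.00522). Hspb7, a cardiac small heat shock protein, fell from 2160 and 2170 to 1840 and 1790 CPM (-0.26 ± 0.06, edgeR adjusted p = 0.0346). The Hspb7 call was lost without WT replicate 1 (edgeR adjusted p = 0.275) or 2 (0.257), and that of Hspb8 without WT replicate 1 (0.109).

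None of 10 chaperonin genes passed in edgeR or DESeq2. At an unadjusted edgeR p under 0.05, 0 were higher and 2 lower, beside 1708 and 1551 of all 13625 tested genes. The chaperonins had a list median of -0.11. Those with the smallest p were the mitochondrial partners Hspd1 (201 ± 5.88 to 179 ± 12.9 CPM, edgeR adjusted p = 0.204) and Hspe1 (34.7 ± 0.167 to 30.1 ± 1.77 CPM, edgeR adjusted p = 0.196). None of the 4 tested genes of heat shock factors and their binding protein passed in either tool, with 0 higher and 1 lower at an unadjusted edgeR p under 0.05. Hsf4 was low, with 19 to 37 counts (1.43 to 2.87 CPM) per library, and was at 0.66 ± 0.31 on the log2 scale (edgeR adjusted p = 0.234). Hsbp1, which binds heat shock factor trimers, was at -0.15 ± 0.06 (edgeR adjusted p = 0.183).

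Of 19 further genes known to be induced by heat, 3 rose and 1 fell, with a median log2 fold change of -0.02. Ier5, a regulator of Hsf1 that is also an immediate early gene by name, rose from 54.4 and 49.7 to 107 and 89.3 CPM (log2 fold change 0.91 ± 0.10, edgeR adjusted p = 0.00127), and was at 0.78 without Trbp-cKO replicate 1 (edgeR adjusted p = 0.000501). Ubb, a polyubiquitin gene, rose from 69.6 and 72.2 to 88.4 and 88.3 CPM (0.32 ± 0.07, edgeR adjusted p = 0.0184), a call lost in DESeq2 (adjusted p = 0.101) and without WT replicate 1 (edgeR adjusted p = 0.169) or 2 (0.127). The third that rose was Dnaja4, and the 1 that fell was Hspb8, both given above. Without Trbp-cKO replicate 1, in which the immediate early genes were highest, the median log2 fold change of the 19 was -0.01.

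**Figure D4:**
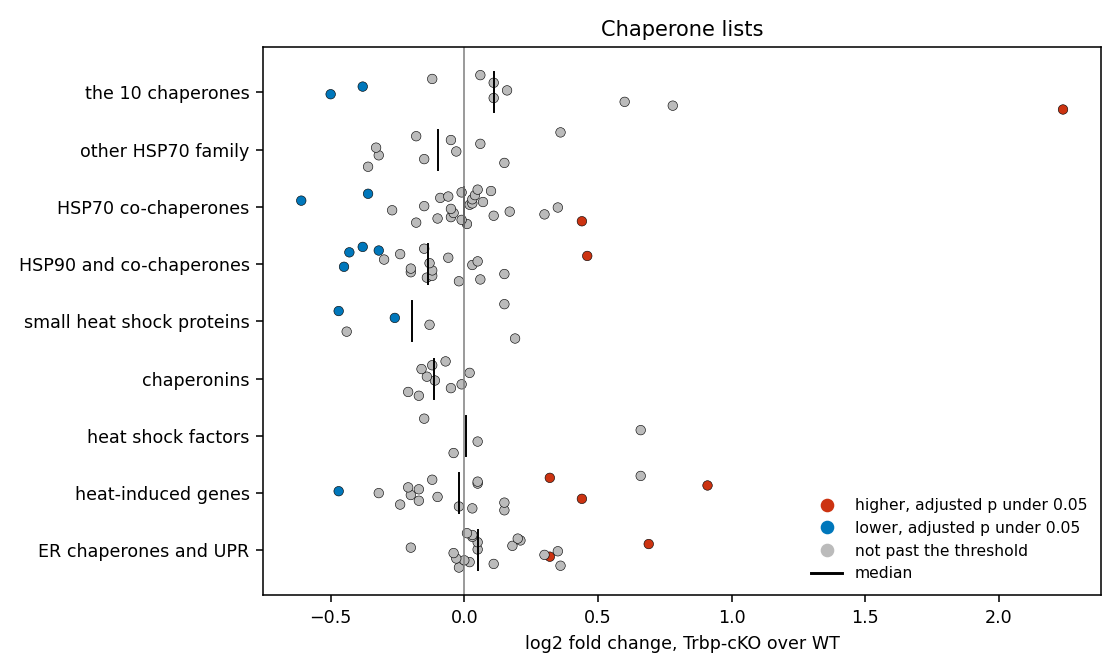
Log2 fold change, Trbp-cKO over WT, of the 10 chaperones (top row) and of the genes of 8 chaperone lists. Each point is a gene, red where higher and blue where lower at an edgeR adjusted p under 0.05, and the black line is the median. List genes lie between -0.61 and 0.91, and Hspa8 lies at 2.24.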

How the data were processed

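Ventricle mRNA of 2 WT and 2 Trbp-cKO libraries was analysed. The small RNA tables were not used here. For each RefSeq transcript the authors' deposited table holds raw counts per library and a ratio, p-value and q-value, per the file headers. The ratio is quoted and named as theirs, and the p-value and q-value were not used. Named in the submitters' processing notes are mm10, edgeR, SAMtools 0.1.16, Bowtie 0.12.9, cutadapt 0.9.5 and CASAVA 1.8.2. Not given in the sources used here: the counting step, its use of strand and its handling of reads with several matches.

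Of 30635 rows, 30020 matched RefSeq (GRCm38.p6). The 110 rows left unnamed, with 0.117% to 0.140% of counts, were left out. The row with the highest total was kept per gene. Counts were fitted in R 4.3.3 with edgeR 4.0.16 (filterByExpr, TMM, robust quasi-likelihood F-test), after a test on simulated data, with Benjamini-Hochberg adjustment over all genes and a threshold of 0.05. DESeq2 1.42.0, other scalings, filters, summed rows, a replicate block and leaving out each library were alternatives. The 10 genes and all lists were chosen with earlier results of these data known. Named are the 10 genes, Tarbp2, up to 4 passing genes per list by smallest p, 2 per list in which none passed, and the 5 genes nearest to Hspa8. Fos, Fkbp5, Hspa1l, Rabepk, Sox6, Dnajc27, Ttn, Gapdh, Ppia, Rpsa and Eef1a1 were named outside this rule. Protein sequences were not analysed here.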

Additional observations from a re-analysis of the deposited data

How the results depend on the processing

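The log2 fold change of Hspa8 lay between 2.13 and 2.37 under the alternatives, and neither it nor those of Hsp90aa1 and Hsph1 changed sign, which is a description since this contrast chose the genes. Total count scaling moved the median of all genes by -0.0417 on the log2 scale. Leaving out a library leaves 1 sample in an arm, which is then assumed to vary like the other genotype. Libraries of the same number shared a deviation (correlation 0.327 over 10865 genes), but there are 2 pairs and the labels give no shared origin, so the replicate block is an alternative and not a pairing. The cause of the shifts below was not tested.

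Over all genes, 705 higher and 572 lower became 450 and 318 in DESeq2, 549 and 439 with the replicate block, and 144 to 684 and 131 to 487 on leaving out 1 library. Of the 10 chaperones, 1 to 2 were higher and 0 to 2 lower on leaving out 1 library, with 0 lower in DESeq2, and the replicate block gave 1 and 2. Without a filter, other HSP70 genes had 1 higher and 1 lower, HSP70 co-chaperones 2 higher, heat-induced genes 2 lower, ER genes 4 higher and genes with processed copies 2 lower. Total count scaling gave 1 lower HSP70 gene, 2 lower heat-induced genes, 1 higher ER gene and 2 lower genes with processed copies. DESeq2 gave 1 lower HSP70 co-chaperone, 2 lower HSP90 genes and 0 lower genes with processed copies. Summed rows gave 1 lower HSP70 co-chaperone and 2 lower HSP90 genes. With the replicate block, HSP70 co-chaperones had 1 lower, small heat shock proteins 1 lower, ER genes 1 higher, immediate early genes 7 higher and genes with processed copies 2 higher. Calls lost under the block among the chaperone lists were those of Canx (edgeR adjusted p = 0.0672), Hspbp1 (0.0527), Fkbp5 (0.0774) and Hspb7 (0.0884), and 3 HSP90 genes stayed lower.

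On leaving out 1 library, other HSP70 genes had 0 to 1 higher and 0 to 1 lower. HSP70 co-chaperones had 0 to 1 higher and 1 lower. HSP90 genes had 0 to 1 higher and 0 to 3 lower, and small heat shock proteins 0 to 2 lower. Heat-induced genes had 1 to 3 higher and 0 to 2 lower, ER genes 1 to 3 higher and immediate early genes 1 to 7 higher. Genes with processed copies had 0 to 2 higher and 0 to 2 lower.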
